A study of Homo sapiens with 6 samples.

Results

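The 10 genes described here are targets of the transcription factor p53 grouped for their parts in stress signalling, metabolism and DNA repair: GDF15, SESN1, SESN2, TIGAR, RRM2B, TP53INP1, PLK2, PLK3, XPC and DDB2. They were taken by symbol from a table of 36651 genes, and each symbol named 1 row. RNA was measured in HCT116, a human colorectal carcinoma cell line with epithelial morphology, in 3 control libraries and 3 libraries labelled siMTA1, made from polyA-selected RNA. MTA1 belongs to NuRD, which combines a nucleosome remodeller with histone deacetylases, and the comparison asks what differs where MTA1 is lowered. The column headers and the design text say siMTA1, the sample descriptions say siMTA, and the sample titles say CrMTA1. The controls are called Ctrl or WT. Every header and description also carries the tag 3rd, whose meaning no source used here gives. The means by which MTA1 was lowered, RNA interference or gene editing, is therefore uncertain, and no source used here gives the kind of control, the dose or the time. The labels do not tie the replicates to separate cultures. The p-values therefore speak only of the spread between these libraries, which may be technical.

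p53 is a transcription factor that is stabilised when DNA is damaged or cells are stressed. It binds DNA as a tetramer at response elements made of a pair of half-sites. Besides arrest and death genes, it raises genes that lower oxidant load and growth signalling, supply nucleotides for repair and find damaged bases. Several of these genes also answer to other regulators: SESN2 and GDF15 are known targets of ATF4, and PLK2 was first described as a gene induced by serum.

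Values are FPKM, which divide a gene's fragments by its length and by library size. Low values fell on regular steps, which imply depths between 42900000 and 66700000 fragments a library. MTA1 itself, the targeted gene, had 65.90, 67.61 and 66.74 FPKM in the controls against 44.55, 43.98 and 47.97 FPKM under siMTA1, so the labels and the targeted transcript did not disagree. On the scale of log2(FPKM + 1) its difference was −0.54 (SE 0.06, limma adjusted p = 0.000376). An exact permutation test (two-sided) gave p = 0.1, the lowest value possible with 3 libraries on each side. Of 10 markers of colon epithelium, 7 had a mean of at least 1 FPKM, EPCAM at 294.9 FPKM in control among them, whereas VIL1, CDH17 and LGALS4 were under 0.1 FPKM in every library. Summed markers of leukocytes lay between 0.36 and 0.53 FPKM and those of endothelium between 0.14 and 0.28 FPKM over all libraries. Those of fibroblasts lay between 1.94 and 2.01 FPKM in control and between 2.17 and 2.76 FPKM with siMTA1, nearly all of it COL1A1, while DCN, THY1 and PDGFRA were at 0.

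Sequence at the starts of the genes is shown for the members whose start region holds letters matching a p53 response element, since that is the feature by which such genes are known. Start windows of 300 bases, 250 before and 50 after each annotated start, came from RefSeq (GRCh38.p14) and were found for 8 of the 10 genes, in 11 windows. They were searched for the p53 half-site consensus, a palindrome of 10 letters that reads the same on both strands. A full site was taken as 2 half-sites separated by at most 1 base, with the core C and G of each kept and at most 3 of the 20 letters departing from the consensus. The search was added with the expression values known. In the stretches below, each written 5′ to 3′ on the gene's strand, capitals mark the half-sites and lower case the spacer and flanks.
DDB2: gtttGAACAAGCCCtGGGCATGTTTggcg
SESN1: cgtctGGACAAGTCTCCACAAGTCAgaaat
GDF15: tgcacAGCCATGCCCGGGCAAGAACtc
PLK2: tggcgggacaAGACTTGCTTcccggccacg

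The DDB2 stretch (chr11:47214975-47215003, plus strand) holds a full site with 0 letters departing and a spacer of 1 base. The site in capitals begins at base 6 counted from the second of 2 RefSeq starts, in an untranslated part of an exon. Only 7 of the 35116 windows in the RefSeq table held a full site with no departing letter, and an overlapping site with 1 departing letter begins 5 bases before the same start. In the SESN1 stretch (chr6:109009013-109009042, minus strand) the capitals begin 49 bases before 1 of the 3 SESN1 starts, inside an intron of the longer transcripts, and depart at 3 letters. In the GDF15 stretch (chr19:18386181-18386207, plus strand) the capitals begin at base 29 of the transcript and depart at 3 letters, and the stretch runs into the coding sequence of GENCODE 29. PLK2 (chr5:58460199-58460228, minus strand) has a single half-site, whose capitals begin 132 bases before its RefSeq start, within an untranslated part of an exon of GENCODE 29. No match by these rules lay in the windows of SESN2, TIGAR, PLK3 or XPC. Bases outside the windows were not searched, so a site elsewhere in or near any of these genes would be missed. Over all windows, 6.63% held an exact half-site and 2.38% a full site. These matches describe letters only, and no binding of p53 was measured in this series.

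With siMTA1, 6 of the 10 genes fell and 0 rose (limma, adjusted p under 0.05). They were PLK2, GDF15, RRM2B, TP53INP1, TIGAR and DDB2, a kinase, a secreted cytokine, a ribonucleotide reductase subunit, an autophagy factor, a sugar phosphatase and a damage sensor. Over the 12141 tested genes, whose mean reached 1 FPKM, 18.2% were called in either direction, 12.1% lower and 6.13% higher, so 6 of 10 stands beside a background of 12.1% lower. At an unadjusted limma p under 0.05 the members' counts were 8 lower and 0 higher. Over the 12141 tested genes that threshold gave 2853 lower and 1402 higher, a larger background than the adjusted one. All 10 members passed the filter on low values. The median log2 fold change of the 10 was −0.32, beside −0.05 over all tested genes. In 8 of the 10 genes the 3 siMTA1 values all lay below the 3 control values, which was so in 25.9% of tested genes (39.1% did not overlap in either direction). The balance between directions over all genes depends on scaling: 66.3% of calls were lower in FPKM as deposited, 47.0% after quantile normalization, 48.4% after upper-quartile scaling and 41.6% after median centring. The number of members called lower stayed at 6 under each of these 3 scalings. In bulk RNA, fewer cells expressing a gene and less RNA per cell cannot be told apart.

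**Figure D1:**
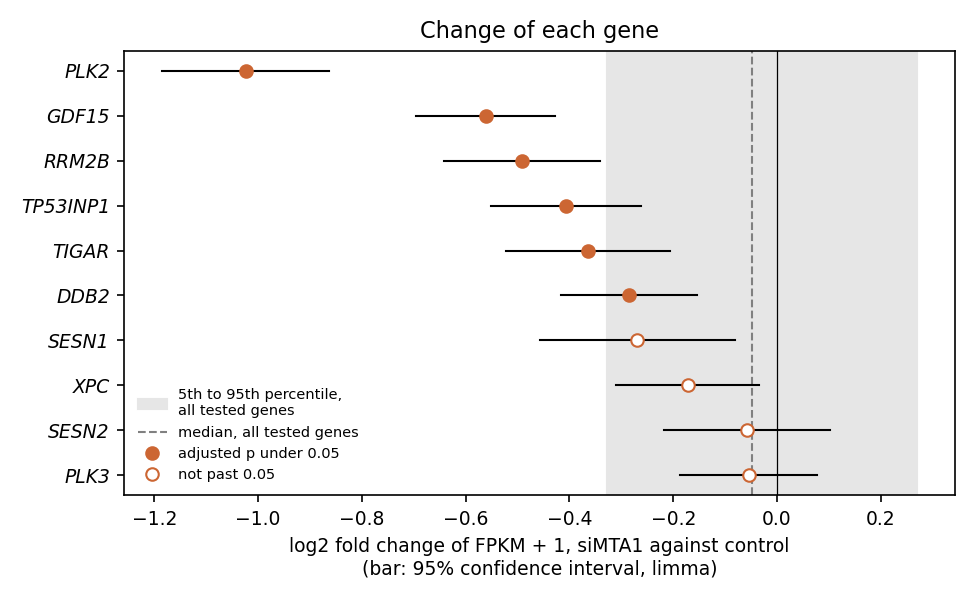
Log2 fold change of FPKM + 1 (x axis, siMTA1 against control) for each of the 10 genes (y axis), with 95% confidence intervals from limma, filled where the adjusted p is under 0.05, with the 5th to 95th percentile of all tested genes shaded (−0.33 to 0.27) and their median dashed. PLK2 stands apart at −1.02, the other 5 called genes lie between −0.56 and −0.28, and the intervals of SESN2 and PLK3 include 0.

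GDF15 codes for a divergent member of the TGF-beta superfamily, a cytokine secreted by stressed cells that acts on appetite through a brainstem receptor. It was the most abundant member, with 383.82, 415.66 and 403.76 FPKM in the controls (libraries 1, 2 and 3, in this order throughout) against 260.36, 286.98 and 267.4 FPKM under siMTA1. The groups were far apart, with the highest siMTA1 library under the lowest control library. Its siMTA1 mean was 67.7% of the control mean, and its log2 fold change was −0.56 (SE 0.06, limma adjusted p = 0.000473). Between 31081 and 55109 implied fragments a library stood behind these values, the largest number among the 10 genes. Of all tested genes, 0.667% had a lower log2 fold change. The full-site match shown above for GDF15 lies at its only RefSeq start in the table.

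TP53INP1 codes for a small protein that binds autophagy factors and promotes the modification of p53. It stood at 5.89, 5.5 and 5.47 FPKM in the controls and at 4.32, 3.86 and 3.81 FPKM with siMTA1. The groups did not overlap. The log2 fold change was −0.41 (SE 0.06, limma adjusted p = 0.00401), and 71.1% of the control level remained.

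PLK2 and PLK3 are polo-like kinases of the stress and early growth response, unlike PLK1 and PLK4, which run mitosis and centriole duplication. PLK2 stood at 21.19, 20.89 and 20.62 FPKM in the controls and at 10.39, 8.66 and 10.35 FPKM with siMTA1. The controls differed among themselves by little (SD 0.285 FPKM) and siMTA1 library 2 was the lowest of all. The siMTA1 mean was 46.9% of the control mean (log2 fold change −1.02, SE 0.07, limma adjusted p = 4.00e-05), and 8 of the 12141 tested genes had a lower log2 fold change. PLK3 stood at 26.86, 26.54 and 28.23 FPKM in control and at 24.84, 26.03 and 27.65 FPKM with siMTA1. Its groups overlapped, since siMTA1 library 3 lay above control libraries 1 and 2. PLK3 did not pass (log2 fold change −0.05, 95% confidence interval −0.19 to 0.08, limma adjusted p = 0.543), and that interval does not reach the change of PLK2.

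The ratio of PLK2 to PLK3 within a library fell from 0.769 ± 0.033 in control to 0.375 ± 0.043 with siMTA1 (SD, n = 3 each, ratio of FPKM). The 2 groups of ratios did not overlap. The difference between the log2 changes of the 2 genes was −0.97, with an exact two-sided permutation p = 0.1, the smallest possible, and p = 0.2 after adjustment over the 4 pairs of related genes compared. PLK1 and PLK4 rose. PLK1 averaged 16.3 ± 1.25 FPKM in the controls and 20.5 ± 1.02 under siMTA1, and PLK4 1.93 ± 0.075 and 2.83 ± 0.168 FPKM (SD, n = 3 each). Both passed, with limma adjusted p = 0.0142 for PLK1 and 0.00508 for PLK4, although PLK1 did not when genes of any level were tested (0.0765). PLK5 was at most 0.07 FPKM in any library and was not tested.

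**Figure D2:**
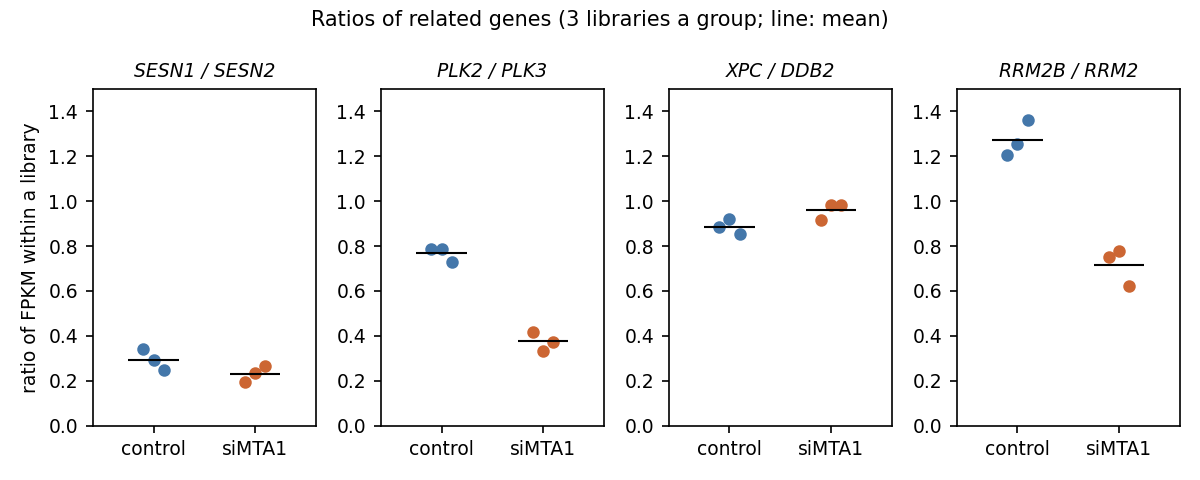
Ratio of the FPKM of 2 related genes within each library (y axis, from 0) for 4 pairs, by group, with the group mean as a line. The ratios of PLK2 to PLK3 and of RRM2B to RRM2 are lower in all 3 siMTA1 libraries than in the controls, while those of SESN1 to SESN2 and of XPC to DDB2 overlap between groups.

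Among the metabolic members, TIGAR fell and neither sestrin passed. TIGAR is a phosphatase that removes an activating fructose bisphosphate, which slows glycolysis and sends sugar into the pentose phosphate pathway. It stood at 6.3, 6.18 and 6.23 FPKM in the controls and at 4.13, 4.71 and 5.06 FPKM with siMTA1. The controls were nearly level (SD 0.060 FPKM), the siMTA1 libraries varied more (SD 0.470 FPKM), and the groups stayed apart. The log2 fold change was −0.36 (SE 0.07, limma adjusted p = 0.00872), but the call ended when genes of any level were tested (0.0595). In GENCODE 29, 42.6% of the exonic bases of TIGAR are also exons of AC008012.1, read in the same direction. AC008012.1 has no row among the deposited genes, so it is not known whether the counting included it.

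Of 13 tested enzymes that act on fructose bisphosphate or in the pentose phosphate pathway, 2 were higher and 0 lower (3 and 3 at an unadjusted limma p under 0.05), with a median log2 fold change of 0.04. PFKFB4, which makes and removes the metabolite that TIGAR hydrolyses, rose from 3.02 ± 0.212 to 5.76 ± 0.853 FPKM (SD, n = 3 each, limma adjusted p = 0.00110). The number higher became 1 to 3 when any 1 library was left out. The number lower became 1 with the filter of 5 FPKM and 2 with the replicate block.

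The sestrins curb growth signalling through mTORC1, SESN2 as a leucine sensor that holds the GATOR2 complex, and help to limit peroxides. SESN1 was the least abundant member, at 2.31, 2.34 and 2.02 FPKM in control and 1.41, 1.74 and 1.89 FPKM with siMTA1. Its groups did not overlap, although control library 3 and siMTA1 library 3 were close, and as few as 413 implied fragments stood behind a library's value. SESN1 just missed the threshold (log2 fold change −0.27, 95% confidence interval −0.46 to −0.08, limma adjusted p = 0.0521). It passed without siMTA1 library 3 (adjusted p = 0.0439) and with limma run without an intensity trend (adjusted p = 0.0459).

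SESN2 stood at 6.77, 8.03 and 8.1 FPKM in control and at 7.26, 7.39 and 7.16 FPKM with siMTA1. The siMTA1 libraries were close to each other and lay inside the range of the controls, of which library 1 was the lowest of all 6. SESN2 did not pass (log2 fold change −0.06, 95% confidence interval −0.22 to 0.10, limma adjusted p = 0.593), and its sign turned under quantile normalization (0.01). The ratio of SESN1 to SESN2 was 0.294 ± 0.046 in control and 0.231 ± 0.035 with siMTA1 (SD, n = 3 each), with overlapping groups. The exact permutation p was 0.2 for the difference between their changes. A difference between the 2 sestrins was not shown, but this test cannot go below 0.1. After adjustment it gave 0.2 for each of the 4 pairs. SESN3 was between 0.29 and 0.43 FPKM and was not tested. Of 22 tested partners of the sestrins in amino acid and energy sensing, 2 were lower and 0 higher (4 and 2 at an unadjusted limma p under 0.05), with a median of −0.05, as over all tested genes. Of all tested genes, 12.1% were called lower and 6.13% higher. Under quantile normalization, upper-quartile scaling and median centring the balance turned, to 1 lower and 2 higher. With TPM it was 1 and 1, and with no filter 0 and 0. The 2 lower genes were PRKAG2, a regulatory subunit of AMPK, at 14.997 ± 1.45 and 10.9 ± 0.893 FPKM (limma adjusted p = 0.00792, but 0.0664 with no filter), and MLST8, an mTOR subunit, at 30.1 ± 0.262 and 26.4 ± 1.004 FPKM (adjusted p = 0.0434). The MLST8 call held without siMTA1 library 3 and ended without any other single library (adjusted p between 0.0734 and 0.139) and under 6 other settings (0.0558 to 0.130).

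RRM2B codes for the p53-inducible small subunit of ribonucleotide reductase, which supplies deoxynucleotides outside S phase, for repair and for mitochondrial DNA. It stood at 36.45, 34.04 and 33.98 FPKM in control and at 26.69, 22.88 and 24 FPKM with siMTA1. Every siMTA1 library was below every control library. The siMTA1 mean was 70.4% of the control mean (log2 fold change −0.49, SE 0.07, limma adjusted p = 0.00202). RRM2, the small subunit of dividing cells, averaged 27.4 ± 2.66 FPKM in the controls and 34.5 ± 4.62 under siMTA1 (SD, n = 3 each, limma adjusted p = 0.0536), with overlapping groups. RRM2 passed without control library 1 (adjusted p = 0.0363) and without siMTA1 library 2 (0.0252), and under quantile normalization (0.0364), upper-quartile scaling (0.0353), median centring (0.0321), the filter of 5 FPKM (0.0310) and the replicate block (0.0445).

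By FPKM, RRM2B RNA lay above RRM2 RNA in every control library, with a ratio of 1.27 ± 0.080. It lay below RRM2 RNA in every siMTA1 library, with 0.716 ± 0.082 (SD, n = 3 each, ratio of FPKM). The gene lengths behind these values are not given, so which RNA was the more abundant is uncertain. The difference between the log2 changes of RRM2B and RRM2 was −0.81 (exact two-sided permutation p = 0.1, adjusted p = 0.2 over the 4 pairs). The large subunit RRM1, which both small subunits need, rose from 20.9 ± 0.367 to 25.8 ± 0.157 FPKM (limma adjusted p = 0.00584). Of 15 other tested genes of deoxynucleotide supply, 4 were lower and 1, RRM1, was higher, with a median of −0.06. The background over all tested genes was 12.1% lower and 6.13% higher. Under quantile normalization, upper-quartile scaling and median centring the balance turned, to 1 lower and 3 higher, and with TPM it was 1 and 2. The number higher was also 3 with the filter of 5 FPKM and with the replicate block. The number lower became 0 to 2 when any 1 library was left out and 0 with no filter. The nucleoside diphosphate kinase gene NME1 was at 140.6 ± 4.06 and 116.6 ± 5.43 FPKM (limma adjusted p = 0.0129) and the pyrimidine kinase gene CMPK1 at 28.8 ± 1.89 and 24.0 ± 1.70 FPKM (adjusted p = 0.0352). The NME1 call ended without control library 2 (adjusted p = 0.0589), without siMTA1 library 2 (0.0529) and with no filter (0.0557). That of CMPK1 ended without control library 1 or 2 (0.0826 and 0.1004), without siMTA1 library 2 or 3 (0.0938 and 0.0979) and under 5 other settings (0.0557 to 0.134).

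XPC and DDB2 find damage for nucleotide excision repair, DDB2 at ultraviolet photoproducts in chromatin as a partner of DDB1, XPC at distorted helices. DDB2 stood at 28.08, 29.93 and 31.33 FPKM in control and at 24.29, 24.75 and 23.7 FPKM with siMTA1. The siMTA1 libraries were close to each other, all below the lowest control. DDB2 fell to 81.4% of the control mean (log2 fold change −0.28, SE 0.06, limma adjusted p = 0.0113), the smallest of the 6 changes called.

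XPC stood at 24.82, 27.5 and 26.8 FPKM in control and at 22.23, 24.37 and 23.27 FPKM with siMTA1. The groups did not overlap, but control library 1 lay only just above siMTA1 library 2. XPC did not pass (log2 fold change −0.17, 95% confidence interval −0.31 to −0.03, limma adjusted p = 0.0791). It passed without control library 1 (adjusted p = 0.0487) and with the replicate number as a block (adjusted p = 0.0305). LSM3 overlaps 6.63% of the exonic bases of XPC on the opposite strand and stood between 14.4 and 19.71 FPKM. The libraries were directional, but no source used here says whether counting used strand. The ratio of XPC to DDB2 was 0.886 ± 0.032 in control and 0.961 ± 0.039 with siMTA1 (SD, n = 3 each, exact permutation p = 0.2), with overlapping groups. A difference between the 2 damage sensors was not shown, but this test cannot go below 0.1. After adjustment it gave 0.2 for each of the 4 pairs.

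Of the 25 other tested genes of nucleotide excision repair, 4 were lower and 0 higher (7 and 1 at an unadjusted limma p under 0.05), a share near the background, with a median log2 fold change of −0.04. DDB1, the partner of DDB2, was at 61.3 ± 3.14 and 60.5 ± 3.41 FPKM (SD, n = 3 each, limma adjusted p = 0.842). RBX1, the RING subunit of the ubiquitin ligase that DDB1 joins, was at 10.003 ± 1.19 and 7.52 ± 0.481 FPKM (adjusted p = 0.0168). The TFIIH subunit genes GTF2H2 and GTF2H3 had adjusted p of 0.0338 and 0.0421. The count of 4 fell to between 0 and 2 when any 1 library was left out, to 2 with TPM, to 1 under quantile normalization, upper-quartile scaling or median centring, and to 0 with no filter, and it became 7 with the replicate block. The number higher was 1 with TPM, each of those 3 scalings, the filter of 5 FPKM and the replicate block. The RBX1 call ended without siMTA1 library 2 (adjusted p = 0.0664) and with no filter (0.102), that of GTF2H2 without any single library (0.0545 to 0.118), and that of GTF2H3 without any but siMTA1 library 3 (0.0556 to 0.118). Both TFIIH calls also ended with no filter and under those 3 scalings (0.0555 to 0.113 for GTF2H2, 0.0739 to 0.167 for GTF2H3). That of GTF2H3 ended with TPM too (0.0555).

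Levels per length spanned a wide range, and the order of the genes changed with siMTA1. In control, GDF15 led at 401.1 FPKM, followed by RRM2B (34.8), DDB2 (29.8), PLK3 (27.2), XPC (26.4), PLK2 (20.9), SESN2 (7.63), TIGAR (6.24), TP53INP1 (5.62) and SESN1 (2.22), all as mean FPKM. The neighbours DDB2 and PLK3, and PLK3 and XPC, overlapped in their 3 values, and the other neighbours did not. With siMTA1, PLK3 came second at 26.2 FPKM, ahead of RRM2B (24.5), DDB2 (24.2) and XPC (23.3), and each of these 4 overlapped with its neighbour among them. TIGAR and TP53INP1 overlapped as well with siMTA1. The gene lengths behind the deposited values are not given, so levels of different genes are comparable only as far as those lengths fit.

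**Figure D3:**
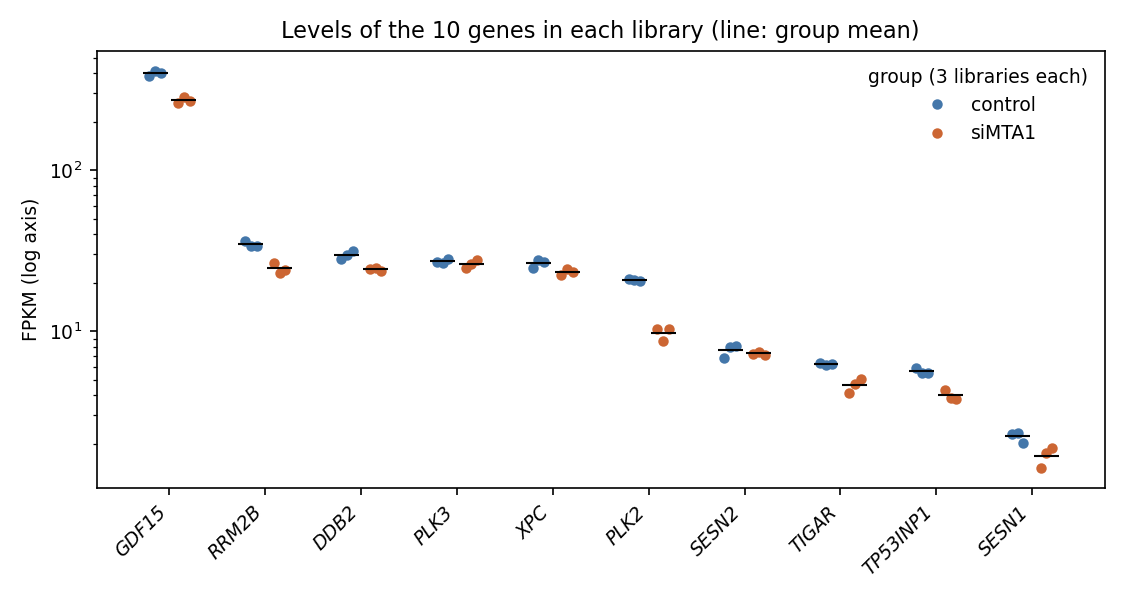
FPKM of the 10 genes (log y axis) in each of the 3 control and 3 siMTA1 libraries, with group means as lines, ordered by the control mean. GDF15 lies over 10 times above the next gene in control, and the groups separate in 8 genes but not in SESN2 or PLK3.

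The other branches of the p53 response were set beside these genes. Of 17 tested genes in a list of p53 regulation, arrest and feedback, 8 were lower and 0 higher (9 and 1 at an unadjusted limma p under 0.05, and 5 lower with no filter), with a median of −0.19. Over all tested genes, 12.1% were called lower and 6.13% higher, and 1.14% lower with no filter. HIPK2, a kinase that activates p53, named after its values were seen, was called higher in 5 of the 16 alternatives, namely TPM, the 3 scalings and the replicate block. In this list the arrest gene CDKN1A stood at 137.8, 155.44 and 170.03 FPKM in control and at 85.97, 86.04 and 90.99 FPKM with siMTA1. PPM1D, a phosphatase that turns p53 off, fell from 13.6 ± 0.914 to 9.61 ± 0.315 FPKM and the cell cycle inhibitor SFN from 273.0 ± 7.62 to 199.4 ± 13.6 FPKM (SD, n = 3 each, limma adjusted p = 0.00208 and 0.00202).

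The list of p53-induced death genes and death receptors also holds a gene that inhibits apoptosis. Of its 14 tested genes, 7 were lower and 0 higher (12 and 0 at an unadjusted limma p under 0.05, and 4 lower with no filter), with a median of −0.25. The same shares over all tested genes apply, 12.1% lower and 6.13% higher, and 1.14% lower with no filter. The death receptor gene FAS fell from 5.89 ± 0.200 to 2.54 ± 0.372 FPKM, the oxidoreductase gene TP53I3 from 7.96 ± 0.074 to 4.47 ± 0.570 FPKM and the apoptosis inhibitor gene TRIAP1 from 26.1 ± 2.20 to 17.3 ± 1.57 FPKM (SD, n = 3 each, limma adjusted p of at most 0.00232). FAS kept 43.2% of its control mean, beside the 46.9% of PLK2. Each of these lists was, like the 10 genes, chosen with results of these data known, and differences between the lists were not tested.

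Lists tied to the other regulators of these genes were set beside them too. Of 15 tested genes of ATF4 and its targets, 4 were higher and 1 lower (6 and 3 at an unadjusted limma p under 0.05), with a median of 0.15. Among them the asparagine synthetase gene ASNS rose from 214.4 ± 2.35 to 262.8 ± 7.71 FPKM, the mTORC1 inhibitor gene DDIT4 from 285.6 ± 7.22 to 375.3 ± 17.3 FPKM and the stress kinase gene EIF2AK3 from 3.70 ± 0.128 to 4.84 ± 0.272 FPKM (SD, n = 3 each, limma adjusted p of at most 0.00997). The number of ATF4 genes higher lay between 3 and 6 over the alternatives. The number lower was 2 with the filter of 5 FPKM, with the replicate block and without control library 1. Of 14 tested immediate early genes, 7 were higher and 2 lower (9 and 3 at an unadjusted limma p under 0.05), with a median of 0.32. The number lower was 1 without any single library but control library 3. Over all tested genes, 6.13% were called higher and 12.1% lower. EGR1 rose from 9.17 ± 1.13 to 21.3 ± 1.20 FPKM, FOS from 0.837 ± 0.156 to 1.74 ± 0.038 FPKM and IER2 from 53.8 ± 0.819 to 68.5 ± 0.388 FPKM (SD, n = 3 each, limma adjusted p of at most 0.00264).

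**Figure D4:**
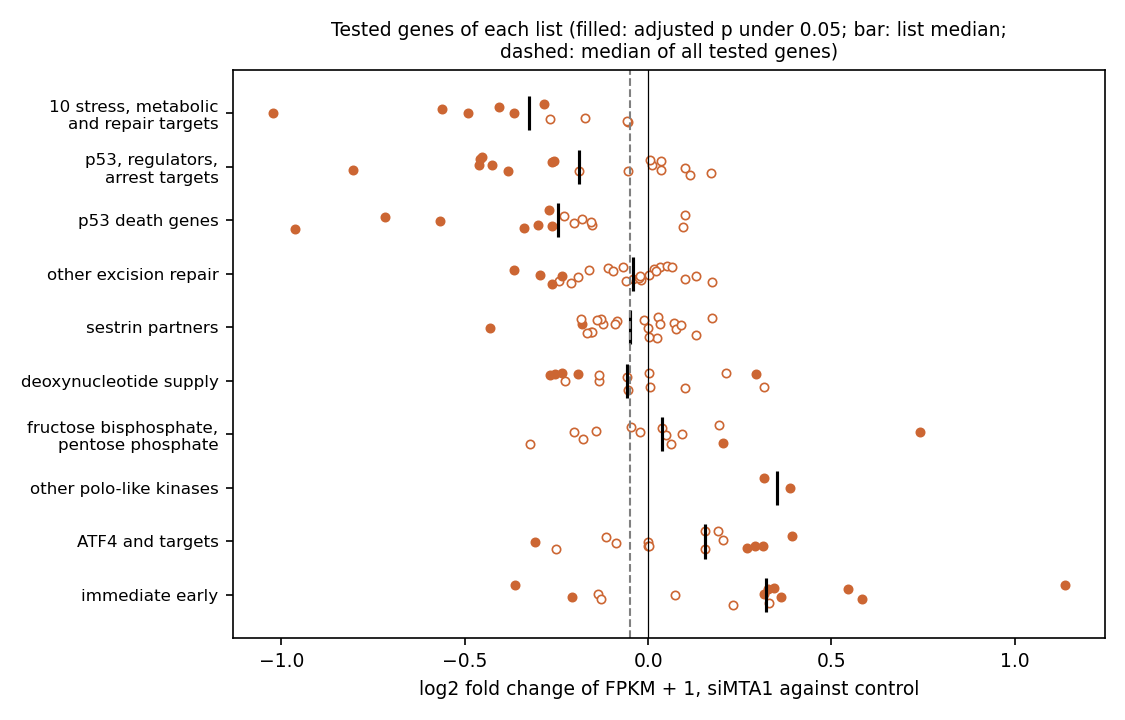
Log2 fold change of FPKM + 1 (x axis) of every tested gene in the 10 members and in the 9 lists set beside them (rows), filled where the adjusted p is under 0.05, with list medians as bars. Medians run from −0.32 for the 10 members to 0.32 for the immediate early genes and 0.35 for PLK1 and PLK4, with −0.05 over all tested genes as the dashed line.

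The genes most like PLK2 and GDF15 over the 6 libraries were found by Pearson's r of log2(FPKM + 1) among 7086 other genes whose mean reached 5 FPKM. For PLK2 these were DRAM1, a p53-inducible regulator of autophagy, OSBPL3 and the NF-kB inhibitor gene NFKBIA, with r between 0.997 and 0.998. For GDF15 they were the hexokinase-like gene HKDC1, ARHGEF10L and ENOPH1, with r between 0.995 and 0.998. With 2 groups of 3 libraries such values mostly reflect the gap between groups, and they serve as a description only.

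The calls on the members were largely stable. PLK2, GDF15, RRM2B and DDB2 passed under all 16 alternatives and TP53INP1 under all 15 that tested it, with DDB2 closest to the threshold, at 0.0497. Log2 fold changes ranged from −1.09 to −0.95 for PLK2 and from −0.60 to −0.51 for GDF15 over these settings. SESN2 and PLK3 passed under none, their smallest adjusted p being 0.167 and 0.345.

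**Figure D5:**
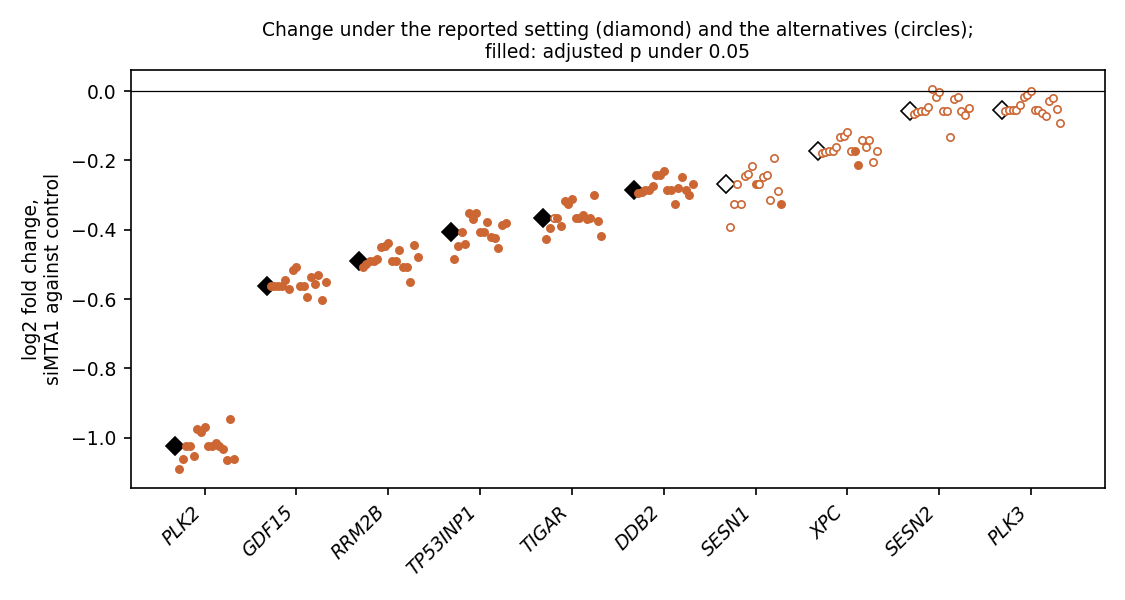
Log2 fold change of each gene (y axis) under the reported setting (black diamond) and each alternative (circles), filled where the adjusted p is under 0.05. The 4 genes on the right, SESN1, XPC, SESN2 and PLK3, are open under the reported setting, and SESN1 and XPC each pass under 2 alternatives.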

How the data were processed

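The authors deposited 1 table of FPKM for 36651 genes in 6 libraries, printed to 2 decimals. The submitters' processing notes name cutadapt, TopHat2, edgeR and GRCh38, without roles. Columns were assigned to samples by name, the siMTA1 headers being matched to descriptions that read siMTA. The 12141 genes whose mean reached 1 FPKM were tested with limma 3.58.1 in R 4.3.3 on log2(FPKM + 1), a scale that understates changes of low genes, with an intensity trend, two-sided, without covariates, and Benjamini-Hochberg adjustment over all tested genes. A single simulated data set of 12141 genes had independent normal noise and 50 genes changed at each size. The recovered share was 40% for a log2 change of 0.3, 88% for 0.6 and 96% for 1, and 6.90% of calls were false. Far fewer genes were changed there than the 2207 called in the data, so these shares may not carry over. Ratios of related genes were tested by exact permutation (scipy 1.17.1). Implied depths take the commonest lowest value in genes under 150 bases as 1 fragment (tolerance 0.04) and use GENCODE 29 exon lengths, so implied fragments are approximate. Members and lists were chosen with earlier results of these data known. Named were the members, MTA1, nearest paralogs or partners, of each list the 3 called genes of smallest adjusted p, and the 3 genes most like GDF15 and PLK2. A further 2 genes that the rule covers count in their lists but are not reported here.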

Additional observations from a re-analysis of the deposited data

How the results depend on the processing

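The 16 alternatives covered pseudocount, filter, scaling, trend, the replicate block and each library left out. The number of members called lower, 6 as reported, lay between 5 and 7 throughout, and 0 were higher. Leaving out a library gave 6 to 7. Over all genes, 2207 were called, 1463 lower and 744 higher. With no filter these were 676, 379 and 297. The number lower was 895 after quantile normalization, 939 after upper-quartile scaling and 802 after median centring, where 1128 were higher. Leaving out a library gave 1046 to 1773 calls, 642 to 1191 lower and 391 to 633 higher, fewest without control library 2 (1046) or siMTA1 library 2 (1066), the cause of which was not tested. Same-numbered libraries deviated together with r = 0.331, 0.0219 and 0.219 for numbers 1, 2 and 3. Those of numbers 1 and 3 were the highest between any control and siMTA1 library, and 4 of 6 libraries correlated best with their own number. It is not known whether the numbers pair samples, so the replicate block was run only as an alternative. The replicate block called 2039 lower and 992 higher, and 7 members, XPC being added. Differences between related genes kept their sign under the alternatives run for them. These were the other pseudocounts, TPM, upper-quartile scaling and each library left out. Median centring was not run for them, since a shift of both genes in a library cancels in their log2 difference. With 3 libraries a group, a change of the size of XPC or SESN1 is near what the spread lets pass.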
